A study of Mus musculus with 16 samples.

Results

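The comparison described here sets 4 B16F10 melanoma tumors from mice treated with α-ketoglutarate (α-KG) and an anti-PD1 antibody together against 4 tumors from vehicle-treated mice, out of 16 tumors sequenced in the study. Its members are all genes that reached 0.5 FPKM (fragments counted per length of transcript and per total of mapped fragments) in at least 4 of the 16 tumors, which were 12850 of the 18929 genes listed. T-cell, STAT and TET genes were set aside, and the text follows the other programs that rose and fell. B16F10 is a pigmented mouse melanoma line derived from the C57BL/6 strain, and the cells were injected into the right abdomen of C57BL/6 females aged 7 to 8 weeks. Injections into the abdominal cavity began when tumors measured about 50 cubic millimeters and ran for 9 to 11 days. The vehicle group received corn oil with an IgG isotype control, and the α-KG + anti-PD1 group received α-KG at 100 mg/kg with the anti-PD1 antibody. Groups of 4 tumors that received α-KG at 100 mg/kg or the antibody alone also entered the fit and are set beside these at the end. The α-KG + anti-PD1 group is also called the combination. All tumors came from the same transplanted line, which carries no engineered allele in the labels, and whole tumor tissue was sequenced.

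PD1 is an inhibitory receptor of activated T cells, and antibodies against it release those cells to kill tumor cells and to secrete interferon-γ. Interferon-γ makes the surrounding cells, malignant or not, switch on antigen presentation, GTPases that attack intracellular vacuoles, and chemokines that draw in more leukocytes. α-KG is an intermediate of the TCA cycle and a cofactor of dioxygenases that remove methyl groups from DNA and histones.

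The 8 tumors were not on a common scale as deposited. FPKM summed to 578171 to 635205 in the vehicle group and to 514180 to 527812 in the combination. Hemoglobin transcripts made up 10.9 to 16.8% of the sum in the former and 2.09 to 2.23% in the latter. The median over all genes tested was 0.15 higher (log2) in combination tumors as deposited, 0.34 with equal FPKM sums, -0.11 after quantile normalization and -0.16 with equal tumor medians. With the values as deposited, 5827 genes (45.3%) passed limma's test at an adjusted p of 0.05. Of the genes tested, 4479 (34.9%) were higher and 1348 (10.5%) were lower in combination tumors. Under all 4 scalings, 1866 genes (14.5%) were called higher and 246 (1.91%) lower, so the direction of a gene list is given below with both counts. Every list count below is to be read against these shares of all genes. Unless both numbers are given, the size of a list counts only members that passed the filter. All 4 tumors of the combination group lay above all 4 vehicle tumors for 28.2% of the genes and below them for 6.55%. A gene near 0 in vehicle tumors could pass the filter of 0.5 FPKM only through treated groups, so a count of such genes called higher is partly set by the filter. Log2 fold changes are differences of mean log2(FPKM + 1), which understate changes of genes near or below 1 FPKM, and each is given with its standard error (SE, or after ±) from limma over 4 tumors a group. Vehicle tumors 3 and 4 were the most alike pair of their group, with a median absolute difference of 0.0755 on the log2 scale against 0.167 to 0.262 for the other vehicle pairs. They differed in muscle genes, described further on, and were kept as separate tumors. With their mean counted as 1 tumor, 4313 genes were called, 3478 of them higher and 835 lower. Pairs of combination tumors had a median absolute log2 difference of 0.137 to 0.248.

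GTPases induced by interferon-γ were among the largest rises outside the genes set aside. They are the guanylate-binding proteins (GBP) and immunity-related GTPases (IRG), which attack membranes that enclose intracellular pathogens. Every one of the 16 tested GBP and IRG genes was called higher, against 34.9% of all genes, and all 16 were also higher under all 4 scalings, against 14.5%. Their median log2 fold change was 2.96, and the 2 groups of tumors did not overlap for any of the 16, against 28.2% of all genes with the combination above vehicle. For Gbp4 the vehicle tumors held 2.94, 1.29, 0.11 and 0.13 FPKM and the combination tumors 58.1, 29.7, 51.4 and 10.7 FPKM. Vehicle tumors 3 and 4 were far below vehicle tumors 1 and 2. Values of Gbp4 in all combination tumors lay above all vehicle values, with a log2 fold change of 4.14 (SE 0.71, adjusted p = 0.000599). Igtp read 16, 10.7, 1.31 and 1.05 FPKM in the vehicle tumors and 146, 71.0, 138 and 35.9 FPKM in the combination tumors. For Igtp no tumor of either group reached the other, and the log2 fold change was 3.95 (SE 0.81, adjusted p = 0.00161). Gbp6 (log2 fold change 3.98 ± 0.71), Gbp2 (3.89 ± 0.75), Tgtp1 (3.95 ± 0.83) and Tgtp2 (3.92 ± 0.83) followed the same order of tumors, with combination tumors 1 and 3 highest and tumor 4 lowest. Tgtp1 and Tgtp2 are near-identical copies, and several GBP genes are close relatives, so the division of reads among them is uncertain.

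Promoter sequences were available in RefSeq (GRCm38.p6, the assembly that mm10 in the submitters' processing notes refers to) for 10 of the 16 GBP and IRG genes. Windows ran from 250 bases before to 50 after the transcription start. The letters GAAANNGAAA, an element bound by interferon regulatory factors, were found on either strand in 10 of these 10 genes, against 3.99% of all 27025 genes with a promoter and 9.12% of those called higher under all scalings. The letters TTCNNNGAA, which STAT dimers bind and which read alike on both strands, were found in 6 of the 10 and in 9.55% of all. The 100 bases before the start of the 8 genes that hold the GAAANNGAAA letters in that stretch are shown because these genes rose together. Capitals mark the matched letters on either strand, and 2 matches overlap in Gbp3 and in Irgm1. A gene counted if any of its promoters matched. Gbp3 has another start, whose 100 bases before it (chr3:142560256-142560355, not shown) hold 0 matches.
Gbp2, chr3:142620563-142620662, plus strand: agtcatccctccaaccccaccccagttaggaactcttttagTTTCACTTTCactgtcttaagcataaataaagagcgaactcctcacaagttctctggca
Gbp3, chr3:142559944-142560043, plus strand: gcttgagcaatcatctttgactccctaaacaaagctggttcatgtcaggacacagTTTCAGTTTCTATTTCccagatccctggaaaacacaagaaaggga
Gbp7, chr3:142530236-142530335, plus strand: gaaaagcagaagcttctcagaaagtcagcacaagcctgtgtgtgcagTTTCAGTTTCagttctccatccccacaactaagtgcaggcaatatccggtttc
Irgm1, chr11:48871421-48871520, minus strand: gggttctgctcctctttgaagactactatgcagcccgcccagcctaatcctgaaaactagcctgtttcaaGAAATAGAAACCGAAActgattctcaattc
Irgm2, chr11:58214877-58214976, plus strand: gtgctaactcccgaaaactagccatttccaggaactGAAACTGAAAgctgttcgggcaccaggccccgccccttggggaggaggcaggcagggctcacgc
Igtp, chr11:58199456-58199555, plus strand: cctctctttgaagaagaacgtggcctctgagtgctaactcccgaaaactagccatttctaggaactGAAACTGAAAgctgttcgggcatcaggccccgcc
Tgtp1, chr11:48992247-48992346, minus strand: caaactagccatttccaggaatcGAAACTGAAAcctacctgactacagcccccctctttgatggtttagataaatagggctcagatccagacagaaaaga
Tgtp2, chr11:49064213-49064312, minus strand: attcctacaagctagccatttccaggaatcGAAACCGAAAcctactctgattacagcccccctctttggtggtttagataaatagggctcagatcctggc

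A match is a description of letters and not of binding. Among antiviral interferon-stimulated genes 10 of 17 promoters held the same letters, and among MHC class I and peptide-loading genes 4 of 13 did.

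Most genes of antigen presentation were called higher. MHC class I molecules show peptides made in the cell to CD8 T cells, and they were measured by 16 genes of the heavy chains, the light chain and peptide loading. Among 16 MHC class I and peptide-loading genes, 15 were called higher and none lower. Under all scalings 15 passed, and the median log2 fold change was 2.34. The level of B2m was 1455, 990.1, 269.9 and 286 FPKM in the vehicle group and 3142, 1791, 2892 and 1561 FPKM in the combination group. B2m encodes the light chain shared by all class I molecules, and it gained the most FPKM among genes called higher under all scalings whose groups did not overlap. B2m was lowest in combination tumor 4, still above every vehicle tumor, and had a log2 fold change of 1.96 (SE 0.49, adjusted p = 0.00522). Tap1 stood at 35.9, 11.4, 2.13 and 2.34 FPKM in vehicle tumors 1 to 4 and at 119, 80.9, 143 and 43.9 FPKM in combination tumors 1 to 4. Tap1 showed no overlap of the groups, and the log2 fold change was 3.43 (SE 0.75, adjusted p = 0.00241). Tap1 and Tap2 form the pump that moves peptides into the endoplasmic reticulum, and Tap2 rose by a log2 fold change of 3.31 ± 0.71. H2-K1 (log2 fold change 2.49 ± 0.55) and H2-D1 (2.50 ± 0.56) encode class I heavy chains and can share reads with related H2 genes, and the H2-D1 level of vehicle tumor 1 (421 FPKM) lay above that of combination tumor 4 (407 FPKM).

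Such peptides are cut by the proteasome, whose inducible and constitutive subunits are given in turn. All 5 tested immunoproteasome genes were called higher under all 4 scalings, with a median of 1.89. For Psmb9 the vehicle tumors held 43.6, 13.4, 1.93 and 2.12 FPKM and the combination tumors 206, 83.0, 204 and 45.4 FPKM. Vehicle tumor 1 came close to combination tumor 4. Values of Psmb9 in all combination tumors lay above all vehicle values, with a log2 fold change of 3.69 (SE 0.84, adjusted p = 0.00303). Psmb8 (log2 fold change 3.65 ± 0.81) and Psmb10 (1.89 ± 0.42), the other inducible catalytic subunits, and the activator subunit Psme1 (1.19 ± 0.29) rose too. Of the 31 constitutive subunits, 17 were called lower, against 10.5% of all genes, and none higher with the values as deposited, and none passed under all scalings, against 1.91% of all genes. With equal FPKM sums 0 were called lower (median -0.0072), and with equal tumor medians 30 were (median -0.53). Without vehicle tumor 3, vehicle tumor 4 or combination tumor 2 the lower count was 9, 8 and 9, and with the length trend described below removed it was 10. Psma6, a subunit of the outer ring, stood at 113, 118, 131 and 139.6 FPKM in vehicle and 94.6, 86.8, 99.3 and 92.1 FPKM in combination tumors. For Psma6 no tumor of either group reached the other, and the log2 fold change was -0.42 (SE 0.08, adjusted p = 0.00118).

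MHC class II molecules, which present engulfed proteins to CD4 T cells, had a larger median than class I on the log2 scale, and the lists were not tested against each other. Of 11 class II presentation genes, 10 were called higher and none lower, 8 under all scalings, with a median log2 fold change of 3.25. H2-Ab1 read 59.7, 27.4, 5.35 and 9.02 FPKM in the vehicle tumors and 611, 186, 514 and 82.8 FPKM in the combination tumors. H2-Ab1 was lowest in combination tumor 4, still above every vehicle tumor, and had a log2 fold change of 3.86 (SE 0.70, adjusted p = 0.000799). The level of Cd74 was 161, 84.2, 21.6 and 26.5 FPKM in the vehicle group and 1636, 431, 1310 and 220.1 FPKM in the combination group. Cd74 is the invariant chain that guards the class II groove. Cd74 showed no overlap of the groups, and the log2 fold change was 3.64 (SE 0.68, adjusted p = 0.000937).

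**Figure D1:**
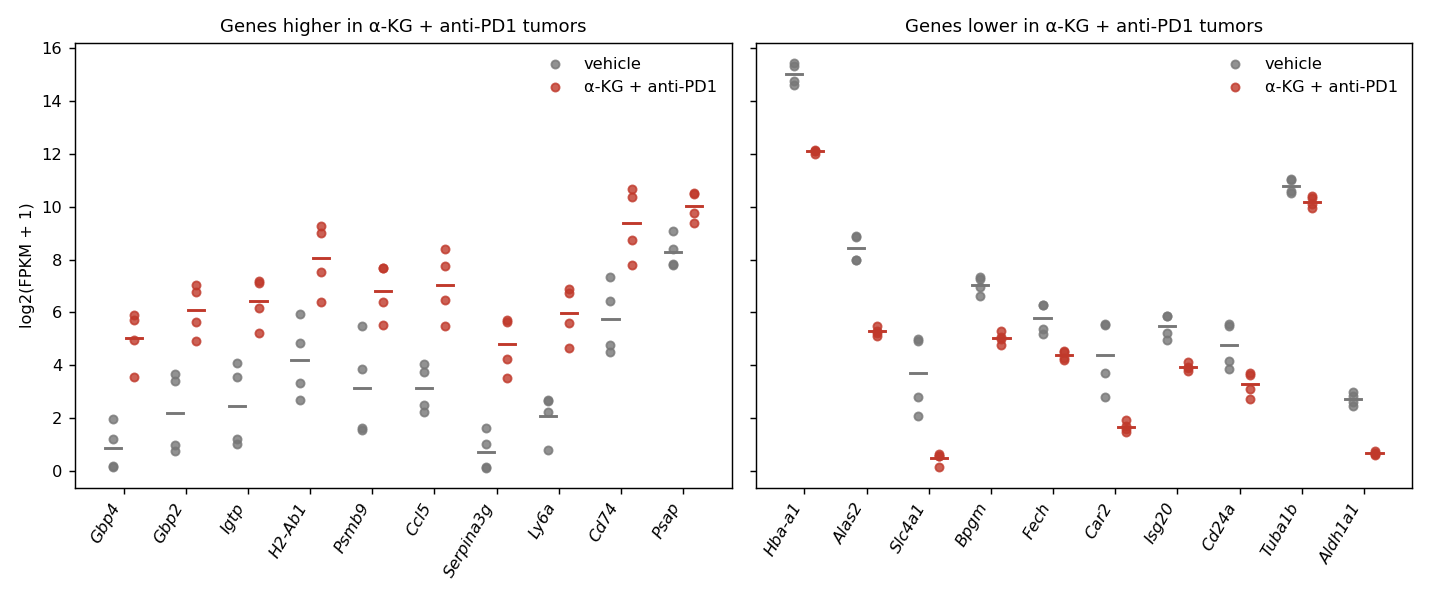
Levels of 20 genes as log2(FPKM + 1) in each of the 4 vehicle (gray) and 4 combination tumors (red). Bars mark group means. Rising genes spread widely within both groups, and the 4 combination tumors nearly coincide for Hba-a1, between 4129 and 4529 FPKM.

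Antiviral genes induced by interferon rose by a smaller median. Among 22 antiviral interferon-stimulated genes, 20 were called higher and none lower. Under all scalings 20 passed, and the median log2 fold change was 1.57. Zbp1 stood at 6.36, 7.16, 0.86 and 1.16 FPKM in vehicle tumors 1 to 4 and at 75.0, 32.4, 71.1 and 19.7 FPKM in combination tumors 1 to 4. Zbp1 encodes a sensor of Z-form nucleic acids that triggers cell death. Values of Zbp1 in all combination tumors lay above all vehicle values, with a log2 fold change of 3.48 (SE 0.60, adjusted p = 0.000619). Oas2, which makes the second messenger of RNase L, rose by a log2 fold change of 2.52 ± 0.37, and Bst2, which tethers budding virus particles, by 1.79 ± 0.36. Isg15, a ubiquitin-like modifier, and Rsad2 (viperin) did not pass. Isg15 read 22.6, 20.4, 37.7 and 35.1 FPKM in vehicle and 45.2, 26.8, 48.4 and 28.4 FPKM in combination tumors, and vehicle tumors 3 and 4, the lowest for GBP genes, were here above vehicle tumors 1 and 2. Isg20, an RNA exonuclease named for induction by interferon, went the other way under all scalings. For Isg20 the vehicle tumors held 29.9, 36.3, 56.8 and 57 FPKM and the combination tumors 13.9, 12.9, 16.5 and 14.4 FPKM. For Isg20 no tumor of either group reached the other, and the log2 fold change was -1.53 (SE 0.34, adjusted p = 0.00245).

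Chemokines draw leukocytes along a gradient. Of 18 chemokine genes in the deposited values 13 passed the filter. Of these 13, 12 were called higher and none lower, 11 under all scalings, with a median log2 fold change of 2.27. Members near 0 in vehicle tumors, such as Cxcl9, could pass mainly through treated groups, so this count is partly set by the filter. Ccl5 read 15.4, 12.6, 3.72 and 4.6 FPKM in the vehicle tumors and 338, 87.1, 214 and 43.2 FPKM in the combination tumors. Ccl5 draws in T cells, NK cells and monocytes. Ccl5 was lowest in combination tumor 4, still above every vehicle tumor, and had a log2 fold change of 3.89 (SE 0.65, adjusted p = 0.000564). Cxcl9, an interferon-γ-induced attractant of activated T cells, read 2.44, 1.41, 0.19 and 0.14 FPKM in vehicle and 40.9, 12.1, 33.7 and 7.30 FPKM in combination tumors. Cxcl9 showed no overlap of the groups, and the log2 fold change was 3.44 (SE 0.57, adjusted p = 0.000534). Ccl3 (log2 fold change 3.02 ± 0.31) and Ccl4 (2.98 ± 0.35), attractants of monocytes and T cells, and the monocyte attractant Ccl8 (3.58 ± 0.63) rose as well.

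Leukocyte marker genes moved with these programs, and their part in the results above was not tested. Among 12 pan-leukocyte markers, 11 were called higher and none lower. Under all scalings 11 passed, and the median log2 fold change was 2.77. The summed level of this list was 357 to 516 FPKM in vehicle and 640.2 to 1644 FPKM in combination tumors. Arhgdib, the most abundant of them, was not called, at 307, 331, 304 and 304 FPKM in vehicle and 414, 284, 357 and 306 FPKM in combination tumors. Ptprc, which encodes the leukocyte antigen CD45, read 4.31, 2.21, 0.65 and 0.88 FPKM in vehicle and 37.6, 14.2, 35.5 and 9.34 FPKM in combination tumors. Values of Ptprc in all combination tumors lay above all vehicle values, with a log2 fold change of 3.01 (SE 0.43, adjusted p = 0.000417). In bulk tumors a larger number of leukocytes and more RNA per leukocyte cannot be told apart.

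Macrophage and monocyte markers were among the abundant risers. Of 16 macrophage and monocyte markers, 16 were called higher and none lower, 15 under all scalings, with a median log2 fold change of 2.31. The summed level of the list was 142 to 652 FPKM in vehicle and 1009 to 2643 FPKM in combination tumors. The level of Lyz2 was 129.5, 99.7, 36.5 and 44.0 FPKM in the vehicle group and 785, 310.2, 802 and 253 FPKM in the combination group. Lyz2 is the lysozyme of myeloid cells. For Lyz2 no tumor of either group reached the other, and the log2 fold change was 2.78 (SE 0.41, adjusted p = 0.000422). Ly6c2, a surface protein of inflammatory monocytes, rose by a log2 fold change of 3.88 ± 0.55. Complement genes followed, led in level by the 3 chains of C1q, which macrophages make. Among 19 complement genes, 15 were called higher and none lower. Under all scalings 12 passed, and the median log2 fold change was 1.72. C1qa stood at 119, 54.5, 19.8 and 21.7 FPKM in vehicle tumors 1 to 4 and at 396, 192, 429 and 179 FPKM in combination tumors 1 to 4. C1qa was lowest in combination tumor 4, still above every vehicle tumor, and had a log2 fold change of 2.72 (SE 0.47, adjusted p = 0.000632). Cfb, a factor of the alternative pathway, rose by 2.57 ± 0.40. Among 6 Fc receptor genes, which let phagocytes bind antibody, 5 were called higher, and Fcgr4 rose furthest (3.08 ± 0.53). All 6 genes of the phagocyte NADPH oxidase, which makes superoxide, were called higher under all scalings. Cybb, its membrane subunit, read 4.87, 3.11, 0.95 and 0.65 FPKM in vehicle and 32.8, 12.2, 32.4 and 10.6 FPKM in combination tumors. Cybb showed no overlap of the groups, and the log2 fold change was 2.78 (SE 0.41, adjusted p = 0.000422).

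Markers of other leukocytes moved to different extents. Of 10 NK-cell markers 8 passed the filter, with a summed level of 0.25 to 2.75 FPKM in vehicle and 7.85 to 109.7 FPKM in combination tumors. Since they passed mainly through groups in which they are higher, no count of calls is given for them. Klrd1 read 0.47, 0.22, 0.08 and 0 FPKM in vehicle and 24.3, 3.24, 20.7 and 1.33 FPKM in combination tumors, and cytotoxic T cells also express it. Of 11 dendritic cell markers 10 were called higher, 4 under all scalings. Of 10 B-cell and plasma-cell markers 5 passed the filter and 2 were called higher, against 34.9% of all genes. The B-cell receptor chain Cd79a was not called (log2 fold change -0.28 ± 0.37). Of 12 neutrophil markers 8 passed the filter and 2 were called higher, a share below that of all genes. S100a9 read 4.86, 11.1, 11.2 and 14.7 FPKM in vehicle and 16.6, 6.74, 5.49 and 47.4 FPKM in combination tumors, where tumor 4 stood highest and tumors 2 and 3 lay within the vehicle range.

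Inflammatory signaling rose beside the interferon genes. Of 14 NF-κB pathway genes, 14 were called higher and none lower, 12 under all scalings, with a median log2 fold change of 1.36. Nfkbia, the inhibitor that NF-κB induces against itself, read 12, 12, 9.96 and 9.13 FPKM in vehicle and 42.0, 17.6, 44.9 and 43.9 FPKM in combination tumors. Values of Nfkbia in all combination tumors lay above all vehicle values, with a log2 fold change of 1.62 (SE 0.28, adjusted p = 0.000641). Among 13 IL-1 family and inflammasome genes, 11 were called higher and none lower. Under all scalings 10 passed, and the median log2 fold change was 1.6. Il1b, the cytokine that inflammasomes release, read 2.32, 6.19, 1.79 and 1.46 FPKM in vehicle and 20.2, 6.91, 12.4 and 48.4 FPKM in combination tumors, and vehicle tumor 2 and combination tumor 2 nearly met. For Il1b no tumor of either group reached the other, and the log2 fold change was 2.35 (SE 0.50, adjusted p = 0.00209). Il18bp, a decoy that interferon-γ induces against IL-18, rose by 2.80 ± 0.60. Nos2, the inducible nitric oxide synthase, read 1.14, 1.15, 0.31 and 0.33 FPKM in vehicle and 38.2, 6.32, 19.3 and 6.89 FPKM in combination tumors. Nos2 was lowest in combination tumor 2, still above every vehicle tumor, and had a log2 fold change of 3.12 (SE 0.50, adjusted p = 0.000491). Acod1, which makes itaconate from a TCA cycle intermediate, rose by 2.98 ± 0.44, and Arg1, which consumes arginine, by 1.15 ± 0.36. Of 7 enzymes of tryptophan, arginine and itaconate metabolism 5 were called higher, and 3 without vehicle tumor 3 or 4 or combination tumor 3. Wars, a tryptophanyl-tRNA synthetase induced by interferon-γ in many cells, did not pass (-0.16 ± 0.09).

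Protease inhibitors and cell death genes were mixed. Of 10 serpin genes 6 were called higher under all scalings and none lower. For Serpina3g the vehicle tumors held 2.08, 1.03, 0.09 and 0.11 FPKM and the combination tumors 49.4, 17.7, 52.1 and 10.6 FPKM. Serpina3g inhibits cathepsins inside leukocytes. Serpina3g showed no overlap of the groups, and the log2 fold change was 4.06 (SE 0.59, adjusted p = 0.000417). Serpinb9, which blocks granzyme B, rose by 2.16 ± 0.43, and Serpinb6a did not pass (-0.036 ± 0.12). Of 20 cell death genes 13 were called higher, 6 under all scalings. Ripk3, the kinase of necroptosis, rose by 1.72 ± 0.29, while the mitochondrial pore proteins Bax (0.15 ± 0.08) and Bak1 (-0.092 ± 0.17) did not pass.

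Lysosomal genes, which serve phagocytes and pigment cells alike, were called higher in most cases. Of 24 lysosomal genes, 17 were called higher and none lower, 9 under all scalings, with a median log2 fold change of 0.54. Psap read 546, 339.5, 228 and 224 FPKM in the vehicle tumors and 1460, 869.8, 1424 and 673 FPKM in the combination tumors. Psap is the precursor of the saposins, which help degrade sphingolipids. Values of Psap in all combination tumors lay above all vehicle values, with a log2 fold change of 1.75 (SE 0.29, adjusted p = 0.000565). The level of Ctsb was 551, 397, 318 and 343 FPKM in the vehicle group and 1187, 781, 1312 and 674 FPKM in the combination group. For Ctsb no tumor of either group reached the other, and the log2 fold change was 1.27 (SE 0.22, adjusted p = 0.000678). Ctsh and Ctsc, proteases rich in leukocytes, rose by 1.90 ± 0.33 and 1.86 ± 0.32, whereas Cd63, abundant in melanosomes, did not pass (-0.03 ± 0.09).

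Stress and growth-factor responses gave smaller shifts. Among 14 p53 targets, 10 were called higher and 1 lower. Under all scalings 5 passed, and the median log2 fold change was 0.58. Btg2, a brake on proliferation, read 2.08, 1.84, 1.08 and 1.70 FPKM in vehicle and 14.5, 3.29, 9.21 and 5.29 FPKM in combination tumors. Btg2 was lowest in combination tumor 2, still above every vehicle tumor, and had a log2 fold change of 1.61 (SE 0.31, adjusted p = 0.00103). Cdkn1a (p21), the cell cycle inhibitor most used as a p53 readout and the most abundant of the list, was called lower with the values as deposited, at 117, 116, 156 and 155 FPKM in vehicle and 87.6, 74.7, 111 and 118 FPKM in combination tumors. The groups overlapped for Cdkn1a, since combination tumor 4 was at or above vehicle tumor 2, and the log2 fold change was -0.48 (SE 0.15, adjusted p = 0.0163). Of 19 immediate early genes, 10 were called higher and 1 lower, against 34.9% and 10.5% of all genes. Under all scalings 6 were higher, and the median log2 fold change was 0.46. Zfp36, which destabilizes cytokine transcripts, rose by 1.49 ± 0.23, Klf2 by 1.40 ± 0.22 and Junb by 0.99 ± 0.27, and Ier3 had a log2 fold change of -0.52 ± 0.16. Unfolded protein response genes were called higher in 2 and lower in 1 of 16, and heat shock genes in 2 and 1 of 13. The abundant chaperones Hspa5 (-0.17 ± 0.11), Hspa8 (0.055 ± 0.11) and Hsp90aa1 (-0.046 ± 0.11) did not pass.

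Most of the chromatin regulators listed were called higher. Among 24 chromatin regulators, 19 were called higher and none lower. Under all scalings 8 passed, and the median log2 fold change was 0.49. Kmt2d stood at 5.00, 2.60, 1.72 and 1.74 FPKM in vehicle tumors 1 to 4 and at 9.07, 13.9, 10.9 and 8.82 FPKM in combination tumors 1 to 4. Kmt2d is a methyltransferase that marks enhancers at histone H3 lysine 4. Values of Kmt2d in all combination tumors lay above all vehicle values, with a log2 fold change of 1.69 (SE 0.31, adjusted p = 0.000783). The related Kmt2b (log2 fold change 1.10 ± 0.23) and Kmt2a (0.97 ± 0.22) rose under all scalings too, while the remodeling ATPases Smarca4 (-0.018 ± 0.08) and Chd4 (0.085 ± 0.10) did not pass. Splicing factors divided. Of 24 splicing factors, 12 were called higher and 2 lower, against 34.9% and 10.5% of all genes. Under all scalings 7 were higher and 1 lower, and the median log2 fold change was 0.29 (-0.024 with equal tumor medians). For Rbm25 the vehicle tumors held 46.3, 30.8, 22.6 and 19.9 FPKM and the combination tumors 82.8, 102, 91.2 and 79.6 FPKM. For Rbm25 no tumor of either group reached the other, and the log2 fold change was 1.61 (SE 0.30, adjusted p = 0.000999). Rbm25 regulates the choice of splice sites. Srsf11, a protein with arginine- and serine-rich stretches, rose by 1.12 ± 0.16 on the log2 scale, and Hnrnpa1, a splicing repressor, fell under all scalings (-0.50 ± 0.10). Srrm2 read 70.4, 52.6, 54.4 and 54.9 FPKM in the vehicle tumors and 124, 176, 168 and 116 FPKM in the combination tumors. Srrm2 is a large scaffold protein of the spliceosome. Srrm2 was lowest in combination tumor 4, still above every vehicle tumor, and had a log2 fold change of 1.30 (SE 0.26, adjusted p = 0.00142).

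These 2 lists moved beside a trend with transcript length. Among the 12556 tested genes with a length in the GENCODE annotation, the shortest of 5 equal groups (median 1249 bases) had a median log2 fold change of 0.0032, with 24.2% called higher and 18% lower. The longest of the 5 groups (median 6548 bases) had a median of 0.23, with 40.1% higher and 5.10% lower. The median log2 level of the longest group minus that of the shortest was -1.18, -1.19, -1.43 and -1.52 in vehicle tumors 1 to 4 and -1.21, -1.12, -1.21 and -1.02 in combination tumors 1 to 4, so vehicle tumors 3 and 4 stood lowest of the 8. After the trend was removed from each tumor, 19 of 24 chromatin regulators and 13 of 24 splicing factors were called higher, and 3 splicing factors lower.

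The largest falls were those of red-cell genes. Among 15 erythroid genes, 11 were called lower and 2 higher. Under all scalings 11 lower passed, and the median log2 fold change was -2.02. The level of Hba-a1 was 25247, 27531, 41447 and 44570 FPKM in the vehicle group and 4529, 4129, 4418 and 4387 FPKM in the combination group. Hba-a1 encodes α-globin, a chain of the oxygen carrier of red cells, and lost the most FPKM among genes called lower in the same way. Hba-a1 showed no overlap of the groups, and the log2 fold change was -2.95 (SE 0.47, adjusted p = 0.000476). Hba-a2 (-2.85 ± 0.46), Hbb-bs (-2.80 ± 0.47) and Hbb-bt (-3.31 ± 0.47) fell alike, and the reads of these near-identical copies cannot be divided with certainty. Alas2 stood at 253, 253, 474 and 458 FPKM in vehicle tumors 1 to 4 and at 38.1, 36.4, 33.6 and 43.9 FPKM in combination tumors 1 to 4. Alas2 makes the precursor of heme in erythroid cells. Values of Alas2 in all combination tumors lay below all vehicle values, with a log2 fold change of -3.15 (SE 0.46, adjusted p = 0.000422). For Slc4a1 the vehicle tumors held 6.04, 3.18, 30.8 and 29.5 FPKM and the combination tumors 0.49, 0.54, 0.11 and 0.47 FPKM. Slc4a1 is the anion exchanger band 3 of the red-cell membrane. For Slc4a1 no tumor of either group reached the other, and the log2 fold change was -3.22 (SE 0.52, adjusted p = 0.000488). Bpgm, which makes the regulator of oxygen release, fell by 2.02 ± 0.29 on the log2 scale, and Fech, which inserts iron into heme, by 1.40 ± 0.25. Vehicle tumors 3 and 4 were above vehicle tumors 1 and 2 for each of the falling genes named here, whereas the 4 combination tumors were close to each other except for Slc4a1 in tumor 3. The members called higher were Ermap and Slc25a37, which are named after their values were seen. Car2, a carbonic anhydrase abundant in red cells and osteoclasts, and Cd24a, a surface glycoprotein of erythroblasts, neutrophils and B cells, fell by 2.73 ± 0.56 and 1.48 ± 0.41 on the log2 scale. Aldh1a1, a retinal dehydrogenase, read 4.46, 5.10, 7.00 and 6.21 FPKM in vehicle and 0.69, 0.55, 0.53 and 0.61 FPKM in combination tumors. Aldh1a1 was highest in combination tumor 1, still below every vehicle tumor, and had a log2 fold change of -2.05 (SE 0.36, adjusted p = 0.000709). Of 11 platelet genes 8 passed the filter, with 2 called higher and 2 lower, against 34.9% and 10.5% of all genes. The platelet chemokine Ppbp fell by 1.06 ± 0.31 on the log2 scale, while Pf4, which macrophages also express, did not pass (0.63 ± 0.28).

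The 100 bases before the start of Alas2 and Hbb-bs are shown for the erythroid fall, with matched letters in capitals. In Alas2 these are the reverse complement of AGATAA, an element bound by GATA factors. Those of Hbb-bs are an element bound by KLF factors (CCACACCC) and a CCAAT box. A match describes letters and not binding.
Alas2, chrX:150547317-150547416, plus strand: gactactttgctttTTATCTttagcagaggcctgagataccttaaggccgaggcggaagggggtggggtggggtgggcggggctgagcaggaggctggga
Hbb-bs, chr7:103827929-103828028, minus strand: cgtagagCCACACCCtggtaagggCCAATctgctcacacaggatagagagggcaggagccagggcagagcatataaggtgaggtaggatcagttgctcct

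Over the whole promoters and on either strand, AGATAA was found in 3 of 10 erythroid genes with a promoter against 12.7% of all genes, CCACACCC in 1 against 4.09%, and CCAAT in 8 against 41.1%. GAAANNGAAA was in 0 of the 10. The elements AGATAA, CCACACCC and CCAAT were not particular to erythroid genes. AGATAA was also in 3 of 10 promoters of the rising GBP and IRG genes, and CCACACCC in 1 of these 10. CCAAT was in 12 of 13 promoters of the rising MHC class I and peptide-loading genes. Among genes called lower under all scalings, AGATAA was in 7.73% and CCAAT in 51.0%, beside 8.02% and 43.4% of all genes tested that have a promoter.

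**Figure D2:**
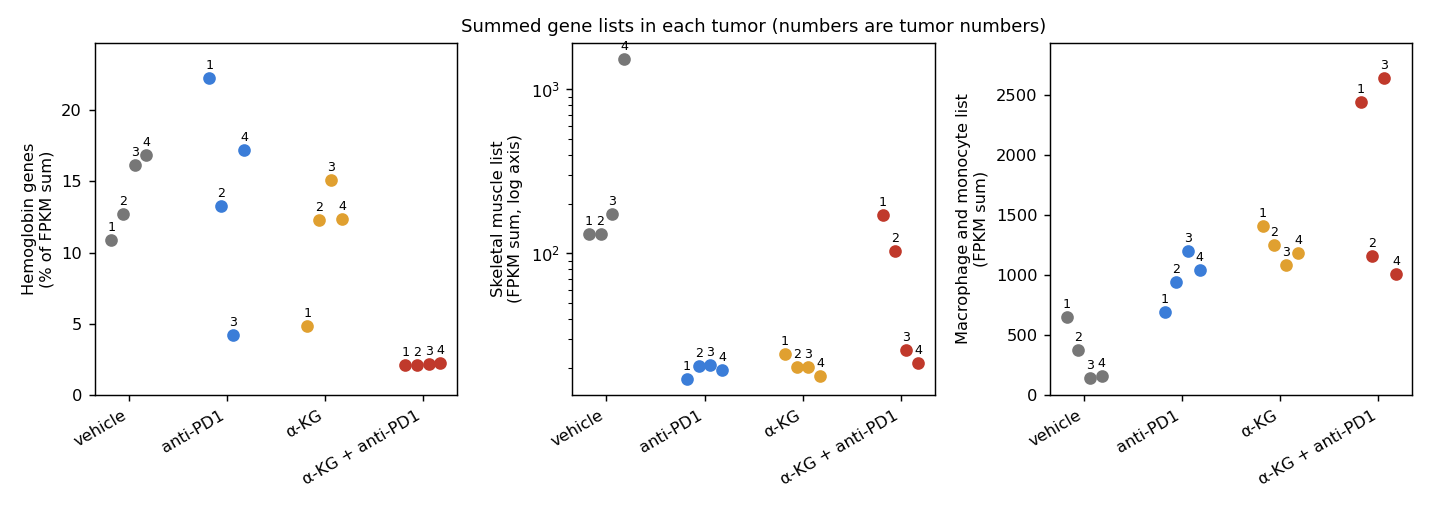
Share of the FPKM sum taken by 10 hemoglobin genes (left), summed FPKM of 15 skeletal muscle genes on a log axis (middle) and of 16 macrophage and monocyte genes (right), with 1 point per tumor in all 4 groups. The combination tumors lie at 2.09 to 2.23% hemoglobin, and vehicle tumor 4 stands apart at 1533 FPKM of muscle genes.

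Skeletal muscle genes also had lower means, but the groups overlapped and the calls rested on few tumors. Of 15 muscle genes 13 were called lower, 12 of them under all scalings, with a median log2 fold change of -2.01. Acta1 read 19.1, 18.1, 24.9 and 281 FPKM in the vehicle tumors and 23.4, 14.4, 0.41 and 0.42 FPKM in the combination tumors. Acta1 is the actin of skeletal muscle fibers. The groups overlapped for Acta1, since combination tumor 1 was at or above vehicle tumor 2, and the log2 fold change was -2.97 (SE 0.90, adjusted p = 0.0151). Vehicle tumor 4 was far above the rest, combination tumors 1 and 2 were at the level of the other vehicle tumors, and combination tumors 3 and 4 were near 0. Without vehicle tumor 4 the count fell to 2 of 15, and without combination tumor 3 or 4 to 0 and 3. Whether muscle was cut out with some tumors was not tested.

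Stromal and vascular genes are given by cell type. Of 15 fibroblast and collagen genes, 2 were called higher and none lower, 1 under all scalings, with a median log2 fold change of 0.15 (-0.24 after quantile normalization and -0.16 with equal tumor medians). Thy1, also a T-cell surface protein, had the larger rise of these (3.82 ± 0.64), and the matrix protein Sparc did not pass (-0.28 ± 0.14). Without vehicle tumor 4, 6 were called higher (median 0.40), and without vehicle tumor 3 or combination tumor 1 or 3, 1 was (median 0.063 without vehicle tumor 3). Of 20 endothelial markers 9 passed the filter, and 3 of these were called higher and 1 lower. Under all scalings none passed, and the median log2 fold change was 0.17 (-0.16 after quantile normalization and -0.14 with equal tumor medians). The shares called were near the 34.9% and 10.5% of all genes. Eng, the most abundant, read 85.4, 71.6, 62.8 and 60.8 FPKM in vehicle and 74.1, 68.5, 68.0 and 78.5 FPKM in combination tumors. The matrix proteases Mmp12 (1.66 ± 0.43) and Mmp14 (0.66 ± 0.14) and the plasminogen activator Plau (1.62 ± 0.31) rose under all scalings, and macrophages are a known source of Mmp12. Lpl, which frees fatty acids from lipoproteins, rose by 1.91 ± 0.33. Of 9 basement membrane genes 2 were called higher and 1 lower, none of them under all scalings, with 0 or 1 higher when any 1 tumor was left out and no call without vehicle tumor 3 or 4. Of 12 pericyte and smooth muscle markers 4 passed the filter, of which 0 were called higher and 1 lower.

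Pigment genes, which mark the melanoma cells, were abundant in all 8 tumors. Of 18 pigment and melanocyte genes 1 was called higher and 4 lower with the values as deposited, none under all scalings, and the median was -0.063 (0.15 with equal FPKM sums). The level of Pmel was 2800, 1956, 2050 and 2037 FPKM in the vehicle group and 2042, 2331, 2094 and 2118 FPKM in the combination group. Pmel forms the fibrils of the melanosome. The groups overlapped for Pmel, since combination tumor 2 was at or above vehicle tumor 2, and the log2 fold change was -0.029 (SE 0.12, adjusted p = 0.856). Tyrp1, an enzyme of melanin synthesis and among the most abundant transcripts, was lower (-0.34 ± 0.12), as was Tyr, the rate-limiting enzyme (-0.48 ± 0.13), while Dct (0.19 ± 0.12) did not pass. Without vehicle tumor 3 or 4 or combination tumor 1 or 3, 2 pigment genes were called lower in each case. Of 16 dedifferentiation genes 12 passed the filter, with 6 called higher and 1 lower, against 34.9% and 10.5% of all genes. Under all scalings 3 were higher and 1 lower, against 14.5% and 1.91%. Without vehicle tumor 3 or combination tumor 3, 3 and 3 were called higher. Tgfbi (2.71 ± 0.50) and Axl (2.04 ± 0.52) rose most, and macrophages express both. Vim, an intermediate filament protein, did not pass (-0.092 ± 0.10).

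About as many of the proliferation genes were called lower with the values as deposited as were not called. Of 25 DNA replication genes, 13 were called lower and none higher, 2 lower under all scalings, with a median log2 fold change of -0.34. Rrm1, a subunit of the reductase that makes DNA precursors, fell under all scalings. Rrm1 stood at 57, 75.1, 87.7 and 85 FPKM in vehicle tumors 1 to 4 and at 49.6, 38.2, 42.8 and 51.9 FPKM in combination tumors 1 to 4. For Rrm1 no tumor of either group reached the other, and the log2 fold change was -0.72 (SE 0.12, adjusted p = 0.00059). Mcm6, a subunit of the replicative helicase, fell by 0.55 ± 0.11 on the log2 scale. Among 25 mitosis genes, 14 were called lower and 1 higher. Under all scalings 2 lower passed, and the median log2 fold change was -0.27. Ccnb1, the mitotic cyclin, read 40.7, 47.8, 60.6 and 61.4 FPKM in vehicle and 31.4, 31.3, 31.9 and 33.9 FPKM in combination tumors, with no overlap. Ccnb1 was highest in combination tumor 4, still below every vehicle tumor, and had a log2 fold change of -0.68 (SE 0.11, adjusted p = 0.000476). Cenpe, a kinetochore motor, was the member called higher (0.84 ± 0.23), and the proliferation marker Mki67 did not pass (0.74 ± 0.31). Tuba1b, a tubulin, was among the 5 genes with the largest loss of FPKM. For Tuba1b the vehicle tumors held 1480, 1549, 2118 and 2077 FPKM and the combination tumors 1276, 999, 1347 and 1091 FPKM. Tuba1b showed no overlap of the groups, and the log2 fold change was -0.61 (SE 0.14, adjusted p = 0.00338). Of 19 ribosome biogenesis genes, 8 were called lower and 1 higher, none under all scalings, with a median log2 fold change of -0.18 (0.036 with equal FPKM sums). Among 82 cytosolic ribosomal proteins, 24 were called lower and none higher. Under all scalings 2 lower passed, and the median log2 fold change was -0.28. Of 78 mitochondrial ribosomal proteins, 27 were called lower and 1 higher, 1 lower under all scalings, with a median log2 fold change of -0.17 (0.04 with equal FPKM sums). Cytosolic ribosomal proteins were called lower in 9 genes without vehicle tumor 3, 9 without vehicle tumor 4, 13 without combination tumor 1, 12 without combination tumor 3 and 12 with the length trend removed. The mitochondrial ones were called lower in 9 without vehicle tumor 3, 11 without vehicle tumor 4 and 16 with the length trend removed, and ribosome biogenesis genes in 3 to 5 without vehicle tumor 2, 3 or 4 or combination tumor 1, 2 or 3.

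Genes of energy metabolism were called lower more often than higher with the values as deposited. Among 21 glycolysis genes, 13 were called lower and 2 higher. Under all scalings 1 lower and 1 higher passed, and the median log2 fold change was -0.34. Eno1 read 3996, 4691, 4737 and 4851 FPKM in the vehicle tumors and 2735, 2583, 2789 and 3277 FPKM in the combination tumors. Eno1 is the enolase of most tissues. Values of Eno1 in all combination tumors lay below all vehicle values, with a log2 fold change of -0.68 (SE 0.11, adjusted p = 0.0005). Gapdh (-0.56 ± 0.15) and Aldoa (-0.39 ± 0.11), abundant enzymes of the same path, were lower as deposited and had log2 fold changes of 1.23 and 0.032 after quantile normalization. Eno2, the neuronal enolase, rose under all scalings. The level of Eno2 was 14.0, 8.56, 7.35 and 8.44 FPKM in the vehicle group and 17.5, 25.2, 25.4 and 16.7 FPKM in the combination group. For Eno2 no tumor of either group reached the other, and the log2 fold change was 1.08 (SE 0.26, adjusted p = 0.00405). Of 26 TCA cycle genes, 12 were called lower and 1 higher, 2 lower under all scalings, with a median log2 fold change of -0.27. Got2 (-0.50 ± 0.11), which interconverts glutamate and α-KG, and Suclg1 (-0.45 ± 0.08), which acts on succinyl-CoA, fell under all scalings. Among 82 respiratory chain and ATP synthase genes, 24 were called lower and none higher. Under all scalings 5 lower passed, and the median log2 fold change was -0.12 (0.093 with equal FPKM sums). With the length trend removed, 17 were called lower and 9 higher. Cox8b and Cox6b2, tissue-restricted subunits, had the largest falls of this list (-1.92 ± 0.59 and -1.58 ± 0.41), and vehicle tumor 4 was highest for both. Of 16 hypoxia-induced genes, 5 were called lower and 1 higher, 2 lower under all scalings, with a median log2 fold change of -0.15 (0.061 with equal FPKM sums). Without vehicle tumor 2 or combination tumor 1 or 2, 3 were called lower. Bnip3, which targets mitochondria for removal, read 305, 365, 351 and 346 FPKM in vehicle and 207, 220.5, 232 and 254 FPKM in combination tumors. Bnip3 was highest in combination tumor 4, still below every vehicle tumor, and had a log2 fold change of -0.58 (SE 0.09, adjusted p = 0.000509). Car9, a carbonic anhydrase often used as a hypoxia marker, did not pass (-0.16 ± 0.11).

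Genes of lipid synthesis were called lower in part. Among 23 cholesterol synthesis genes, 14 were called lower and none higher. Under all scalings none passed, and the median log2 fold change was -0.30. With equal FPKM sums 0 of them were called lower. Sqle, the squalene epoxidase, had a log2 fold change of -0.51 ± 0.10. Of 13 fatty acid synthesis genes, 5 were called lower and 1 higher, 3 lower under all scalings, with a median log2 fold change of -0.16 (0.038 with equal FPKM sums). Fads2 stood at 95.3, 98.3, 101 and 97.4 FPKM in vehicle tumors 1 to 4 and at 53.1, 54.9, 49.1 and 76.0 FPKM in combination tumors 1 to 4. Fads2 desaturates polyunsaturated fatty acids. Fads2 showed no overlap of the groups, and the log2 fold change was -0.76 (SE 0.12, adjusted p = 0.000491). Scd2 (-0.60 ± 0.13) and Scd1 (-0.54 ± 0.13), which make monounsaturated fatty acids, fell under all scalings too. Acly, which supplies acetyl-CoA for both paths, did not pass (-0.23 ± 0.11).

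The medians of these lists moved with the scale of all genes. With equal FPKM sums they were -0.13 for DNA replication, -0.063 for mitosis, -0.12 for glycolysis, -0.052 for the TCA cycle and -0.09 for cholesterol synthesis, beside 0.34 for all genes on that scale. With equal tumor medians, where all genes had -0.16, they were -0.65, -0.58, -0.65, -0.58 and -0.61.

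**Figure D3:**
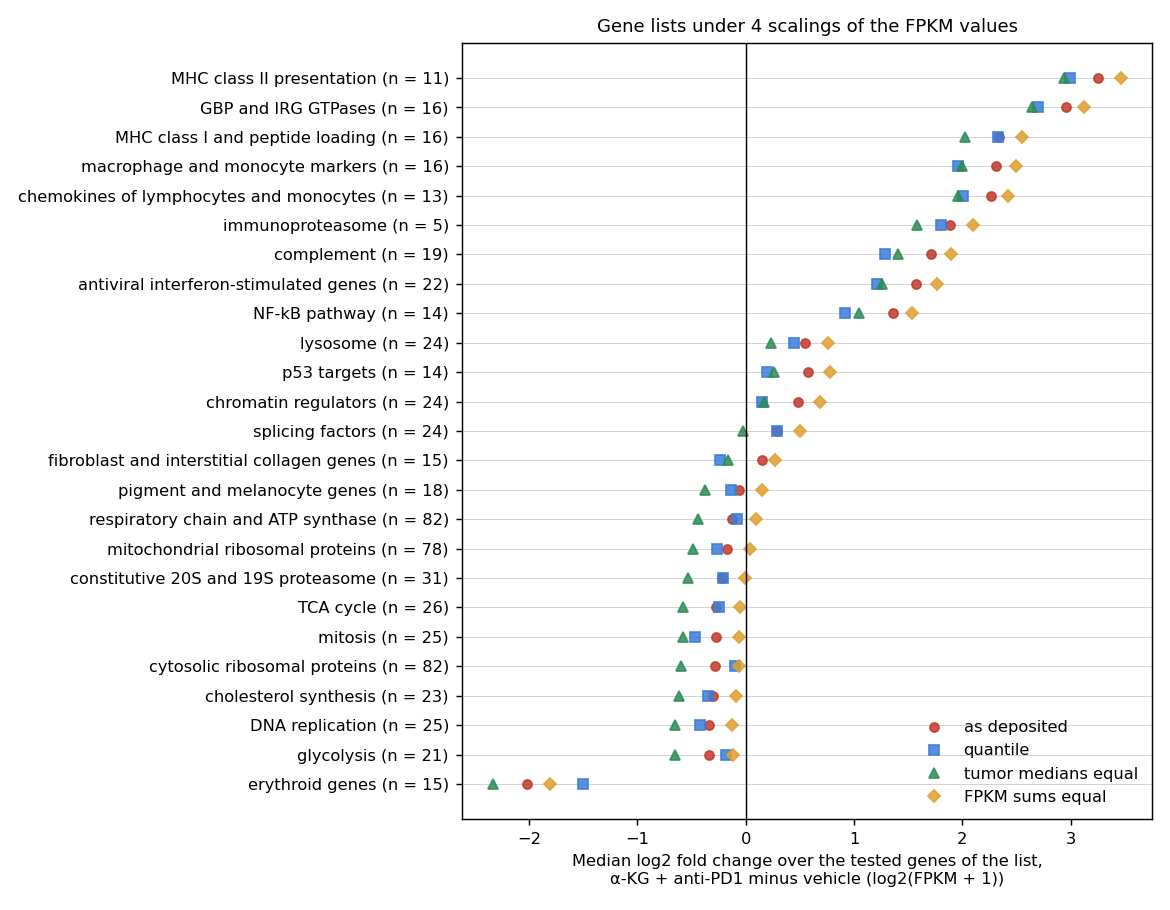
Median log2 fold change over the tested genes of 25 lists, α-KG + anti-PD1 minus vehicle, with the values as deposited (circles), after quantile normalization (squares), with equal tumor medians (triangles) and with equal FPKM sums (diamonds). Immune lists stay above 0 and the erythroid list below it under each scaling, while the metabolic and proliferation lists lie between -0.65 and 0.093.

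Counts for the regulators that follow are to be read against the 34.9% of all genes called higher and 10.5% called lower, and the shares called higher were near or below the former. Iron-handling genes were called higher in 4 and lower in 2 of 13, with Slc11a1, the phagosomal iron exporter of macrophages, rising most (2.58 ± 0.43) and the ferritin chains Ftl1 (0.083 ± 0.14) and Fth1 (0.18 ± 0.16) not passing. Targets of NRF2, the antioxidant regulator, were called higher in 1 and lower in 4 of 16, with 1 lower without vehicle tumor 3 or 4 or combination tumor 2 or 4. Of 14 clock genes 4 were called higher and 3 lower, with 1 lower without vehicle tumor 3 or 4 or combination tumor 3, and Tef rose under all scalings (0.56 ± 0.10). Of 11 glucocorticoid-induced genes 2 were called lower and 3 higher (0 lower without vehicle tumor 3 or 4), namely Sgk1 (1.12 ± 0.30), Tsc22d3 (1.08 ± 0.22) and Dusp1 (1.06 ± 0.26). Of 11 WNT and TGF-β feedback targets 4 were called higher, with Axin2 at 1.15 ± 0.21, Tgif1 at 1.29 ± 0.26 and Id2 at 0.80 ± 0.16. ATF4 targets were called higher in 2 and lower in 2 of 20, and the higher members named here, Cebpb (1.74 ± 0.32) and the glutamine transporter Slc1a5 (0.58 ± 0.18), are also expressed by leukocytes. In the platelet, neutrophil, pericyte, unfolded protein response, heat shock and ATF4 lists, leaving out 1 tumor moved the counts higher or lower by at most 2 genes.

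Some of these lists are given for the single treatments against the same 4 vehicle tumors, without a test of the difference between treatments. The median log2 fold change of the GBP and IRG genes was 1.5 after anti-PD1 and -0.061 after α-KG, beside 2.96 after both. For MHC class II it was 1.90, 1.03 and 3.25 in the same order. The order differed for inflammatory lists, where the NF-κB median was 0.42 after anti-PD1, 1.78 after α-KG and 1.36 after both, and the neutrophil median was 0.27, 3.17 and 0.47. Il1b had log2 fold changes of 0.99, 6.94 and 2.35, and Ccl3 of 1.44, 5.76 and 3.02. Pan-leukocyte markers had medians of 1.53, 2.73 and 2.77. Medians of falling lists after anti-PD1, α-KG and both were -0.19, -0.33 and -0.34 for DNA replication and -0.19, -0.45 and -0.27 for mitosis. They were -0.28, -0.27 and -0.30 for cholesterol synthesis and -0.14, -0.24 and -0.22 for the constitutive proteasome. For cytosolic ribosomal proteins they were -0.11, 0.21 and -0.28. The erythroid median was -0.38, -0.35 and -2.02, and hemoglobin shares ranged from 4.23 to 22.2% in anti-PD1 and from 4.85 to 15.1% in α-KG tumors. Muscle genes had medians of -3.40, -3.56 and -2.01. Their summed level was 131 to 1533 FPKM in the vehicle tumors, with tumor 4 far above the others. It was 17.1 to 20.75 FPKM in anti-PD1, 17.9 to 24.3 FPKM in α-KG and 21.45 to 170.5 FPKM in combination tumors. So all vehicle tumors lay above all single-treatment tumors, and only the combination overlapped with vehicle.

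**Figure D4:**
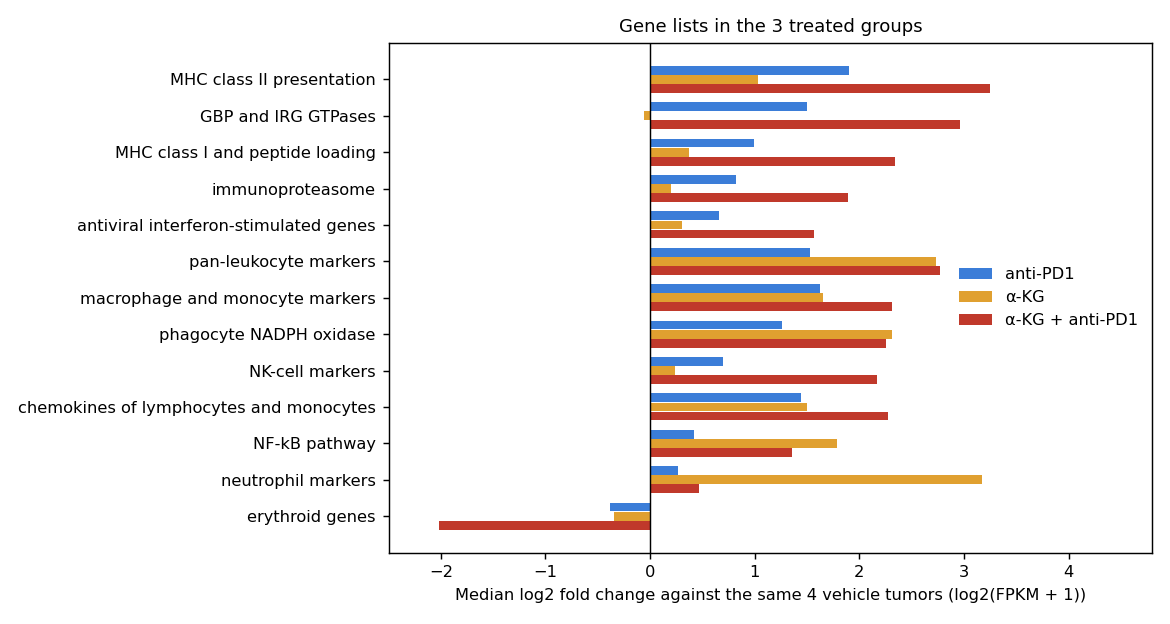
Median log2 fold change of 13 gene lists in anti-PD1 (blue), α-KG (yellow) and combination tumors (red), each against the same 4 vehicle tumors. The GBP and IRG bar reaches 2.96 for the combination, and the neutrophil bar is longest for α-KG alone at 3.17.

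Beyond the lists, Ly6a (Sca-1), an interferon-induced surface antigen, and Tmsb4x (thymosin β4), an actin-binding peptide abundant in leukocytes, were among the leading risers. For Ly6a the vehicle tumors held 5.37, 3.72, 0.71 and 5.29 FPKM and the combination tumors 105, 47.9, 117 and 23.9 FPKM. Values of Ly6a in all combination tumors lay above all vehicle values, with a log2 fold change of 3.88 (SE 0.67, adjusted p = 0.000619). Tmsb4x read 186, 131, 53.7 and 57.5 FPKM in the vehicle tumors and 939.6, 407, 953 and 314 FPKM in the combination tumors. For Tmsb4x no tumor of either group reached the other, and the log2 fold change was 2.63 (SE 0.40, adjusted p = 0.00046). Apol11b, an apolipoprotein L gene, was among the leading falls. The level of Apol11b was 4.25, 1.98, 17.9 and 17.1 FPKM in the vehicle group and 0.13, 0.24, 0.1 and 0.14 FPKM in the combination group. Apol11b was highest in combination tumor 2, still below every vehicle tumor, and had a log2 fold change of -2.89 (SE 0.47, adjusted p = 0.0005). Vehicle tumors 3 and 4 were highest, as for the red-cell genes. The lists, with the T-cell, STAT and TET genes, covered 282 of the 1866 genes called higher under all scalings and 49 of the 246 called lower.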

How the data were processed

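RNA of the 16 tumors was isolated with TRIpure, enriched for mRNA with oligo-dT, made into libraries with dUTP in the second strand and sequenced on a DNBSEQ platform, per the labels. The authors deposited 1 table of FPKM values for 18929 genes, with 0 columns that could not be matched to a tumor. The submitters' processing notes name HISAT, Bowtie2 and mm10. Which program made the FPKM values, and how reads were divided among near-identical genes, is not given in the sources used here. Fragment totals are not used here, so the depth is unknown and no counting interval is given. The labels number the tumors and do not say that each came from its own mouse. The paper describes the 4 tumor samples of each group as independent. The p-values set the difference between groups against the spread between tumors within groups.

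Genes with at least 0.5 FPKM in at least 4 of 16 tumors were kept (12850). limma 3.58.1 in R 4.3.3 was run on log2(FPKM + 1), with 1 mean per group over all 16 tumors, empirical Bayes moderation with a trend and Benjamini-Hochberg adjustment over all genes kept. The threshold was an adjusted p of 0.05. The fit was tested on simulated data. Alternatives were 4 other scalings, a pseudocount of 0.1, other filters, the 8 tumors alone, a replicate block, array weights and leaving out each tumor. The removal of a loess trend on transcript length (span 0.3) and the averaging of vehicle tumors 3 and 4 were chosen after seeing the data.

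Named genes were the 15 largest rises and falls and the 5 largest gains and losses of FPKM among genes called under all scalings whose groups did not overlap, with a mean of at least 5 FPKM in the higher group, and in each list the 3 most abundant and the 3 most changed members. The members and lists were chosen with earlier results of these data known. Genes may belong to several lists. Promoters of 27025 genes came from RefSeq (GRCm38.p6) and were scanned in Python 3.11.15.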

Additional observations from a re-analysis of the deposited data

Results flagged for a closer look

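In 36 genes, each group of 4 tumors was tested for a tumor apart from its group by Dixon's ratio of gap to range, and 2 of 72 groups passed its critical value. Chance alone passes about 5% of groups. Slc4a1, the red-cell anion exchanger, read 0.11 FPKM in α-KG + anti-PD1 tumor 3, below the 0.47 to 0.54 FPKM of the other 3 tumors of that group (ratio 0.837). Hbb-b1, a β-globin gene, read 4.58 FPKM in vehicle tumor 1 and 12.7 to 14.0 FPKM in the other vehicle tumors (ratio 0.859). Its counting may share reads with Hbb-bs and Hbb-bt.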

How the results depend on the processing

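The split of calls rested on the scale. Genes called higher numbered 2241 after quantile normalization and 2197 with equal tumor medians, against 4479. Genes called lower numbered 3994, 4803 and 250 after quantile normalization, with equal tumor medians and with equal FPKM sums, 2336 with array weights, 835 with vehicle tumors 3 and 4 averaged, and 810 to 1741 without 1 tumor (819 without vehicle tumor 3, 810 without vehicle tumor 4, 1741 without vehicle tumor 1), against 1348. Genes called in the same direction under all scalings numbered 2112, and 3223 with array weights. Among 312 named genes, sign changes are listed only for genes called as deposited or in the alternative. With equal tumor medians these were Eng (-0.26), Prox1 (-0.29), Timp2 (-0.31), Cenpa (-0.28), Chd4 (-0.23) and Hnrnpa2b1 (-0.31). After quantile normalization they were Angpt2 (-0.40), Prox1 (-0.38), Gapdh (1.23) and Aldoa (0.032), and without the length trend Mrpl52 (0.17). Some genes called in neither fit also changed sign and are not listed. Equal tumor medians moved the log2 fold change of every gene by the same amount, with the all-gene median going from 0.15 to -0.16. As deposited, the most abundant gene was Hba-a1 in all 4 vehicle tumors and Gapdh in all 4 combination tumors. The cause of the turns after quantile normalization and without the length trend was not tested. The replicate numbers did not pair the tumors (correlations of deviations -0.32 to 0.14), and a replicate block gave 5430 called genes against 5827, with 303 of 312 named genes on the same side of the threshold. All other alternatives kept the number of genes called within 1.5 times. Depth is unknown, so genes near 1 FPKM carry an error that could not be given.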
